A study of Mus musculus with 4 samples.

Results

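The genes described are 10 genes of fibroblast growth factor (FGF) signalling and its feedback: the receptors Fgfr1 and Fgfr4, the ligands Fgf2 and Fgf7, the Sprouty genes Spry1, Spry2 and Spry4, the Spred genes Spred1 and Spred2, and the phosphatase gene Dusp6. They were chosen by name, and rows were found by symbol for 9 of the 10 among 11603 genes. Fgf7, a ligand that mainly activates epithelial receptors, was not analysed here. RNA was sequenced from muscle stem cells of hindlimb muscle, sorted from male C57BL/6 mice aged 4 to 5 months as VCAM1+ and CD31-, CD45- and Sca1-. The 2 groups were control (n = 2) and conditional Hairless knockout (n = 2), Hairless (Hr) being a nuclear corepressor gene. The sources used here give no Cre driver, no deleted part of Hr, no alleles for the controls and no number of animals per library. A p-value here therefore measures the spread between libraries alone, and that spread may be technical.

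FGFs bind receptor tyrosine kinases together with heparan sulfate and signal through the adaptor FRS2 to Ras, ERK and p38. In resting muscle stem cells the pathway is held down from within. Sprouty1 is known for this role, since it limits FGF signalling in the stem cell and helps to keep it quiescent, while FGF2 released by the aged fibre pushes cells out of quiescence. Sprouty and Spred proteins act on Ras and Raf, DUSP6 removes phosphate from ERK, and several of these genes are themselves induced by ERK.

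Values are RPKM, reads scaled by exon length and by the authors' library size, so levels can be compared between genes. Between 21757211 and 34101213 reads per library were counted on all 11603 genes together. The library sizes that the values imply were 85.9% and 92.4% of these reads in the controls and 75.7% and 75.5% in the knockouts. A smaller library size gives a higher RPKM, so some results are also given rescaled to the total of reads per library. Hr had 9.28 and 8.94 RPKM in the controls against 7.15 and 7.90 RPKM in the knockouts, with a limma adjusted p of 0.431; these whole-gene values are no check of a partial deletion. The muscle stem cell marker Pax7 had 8.23 and 12.9 RPKM in the controls against 9.03 and 13.1 RPKM in the knockouts, and Myf5 had 84.5 and 69.7 RPKM against 103 and 106 RPKM. All 10 muscle stem cell markers were analysed and summed to 3531 and 2946 RPKM against 4653 and 4849 RPKM. Both knockout values were above both control values for 5 and below them for 1, against 25.0% and 26.2% of all genes. Sdc4, 1 of the 10, made up much of these sums, at 2121 and 1582 RPKM against 3031 and 3260.0 RPKM. Of the antigens that the sort selected against, Ptprc, which encodes CD45, was at most 0.0399 RPKM, and Pecam1, which encodes CD31, had 8.04 and 11.9 RPKM against 5.51 and 9.66 RPKM, whereas Ly6a, which encodes Sca1, had 47.9 and 49.5 RPKM in the controls against 77.4 and 80.7 RPKM in the knockouts. All 8 markers of differentiating myoblasts were analysed, and 7 had both knockout values below both control values and 0 above. The same held for 7 and 0 of the 8 myofibre markers analysed. The differentiating myoblast markers summed to 548 and 934 RPKM in the controls against 119 and 143 RPKM in the knockouts. The 8 endothelial markers summed to 77.3 and 103 RPKM in control and to 56.5 and 93.6 RPKM in the knockouts, the 6 fibro-adipogenic markers analysed to 565 and 548 RPKM and to 664 and 396 RPKM, and the 8 pericyte and smooth muscle markers to 50.3 and 53.2 RPKM and to 46.2 and 66.9 RPKM. In the same library order, the 8 myofibre markers analysed summed to 181 and 749.9 RPKM and to 66.6 and 55.7 RPKM, the 3 Schwann cell markers to 42.5 and 53.0 RPKM and to 45.6 and 51.9 RPKM, and the 7 blood markers to 17.2 and 16.9 RPKM and to 12.7 and 19.8 RPKM. No marker analysed was at 0 in any library. The part of these cell types in the results that follow was not tested, and fewer cells of a type cannot be told apart from less RNA per cell.

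None of the 9 genes passed the planned test of knockout against control, which did not use the replicate number as a block. With that block Dusp6 alone passed, as did 8.65% of all genes, and the labels do not say that a number pairs libraries. In the planned test the gene with the lowest p was Dusp6, 1.48-fold lower in knockout, followed by Spry1, 1.18-fold lower, and Spry4, 1.17 times as high. The 2 receptors, the ligand, Spry2 and the Spred genes had overlapping groups. limma called 0 of 9 at an adjusted p under 0.05, against 0.00862% of all genes, and limma-voom on the whole reads recovered from the RPKM values also called 0, against 0.0948%. At an unadjusted limma p under 0.05 there was 1, Dusp6, against 18.0% of all genes. The authors' deposited table gave 0 of the 9 an adjusted p under 0.05, against 7.84% of all genes, and the smallest value was 0.146, for Dusp6. The 2 knockout values were both below the 2 control values for 2 genes, Spry1 and Dusp6, against 26.2% of all genes, and above them for 1, Spry4, against 25.0%. Counts of 2 and 1 among 9 genes are near or below those shares. Rescaled to the total of reads per library, 0 of the 9 and 1321 of all genes were separated upward and 2 of the 9 and 5482 of all genes downward, against 2897 and 3041 of all genes on the authors' scale. The median log2 fold change on the log2(RPKM + 0.5) scale was -0.06 over the 9 genes and -0.01 over all genes, and the median absolute log2 fold change was 0.11 over the 9 genes and 0.22 over all genes. The 9 genes and all genes were not matched for expression level.

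**Figure D1:**
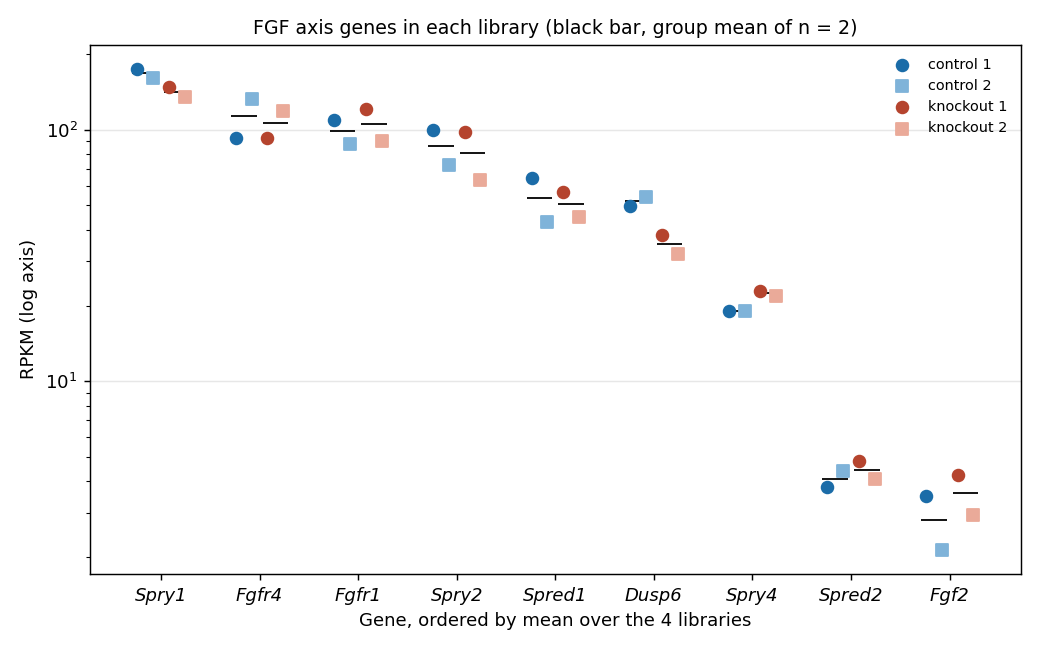
RPKM (log axis) of the 9 genes in the 4 libraries, with genes ordered by their mean and black bars at the group means (n = 2). Spry1 is the highest gene in every library, and only Spry1, Dusp6 and Spry4 have control and knockout values that do not overlap.

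Both receptors were abundant. Fgfr1 (Entrez gene 14182, mm10, chromosome 8, 25513654 to 25575714, plus strand) encodes the main FGF2 receptor of these cells and had 109.6 and 87.4 RPKM in the controls against 121 and 90.4 RPKM in the knockouts. Its log2 fold change was 0.09 (standard error 0.20), with a limma adjusted p of 0.839, and the 95% interval ran from 0.754-fold to 1.51-fold. Fgfr4 (Entrez gene 14186, chromosome 13, 55152640 to 55168759, plus strand), a receptor gene characteristic of the myogenic lineage, had 92.9 and 133 RPKM in the controls against 92.8 and 119 RPKM in the knockouts. Its log2 fold change was -0.08 (standard error 0.23), with a limma adjusted p of 0.883 and a 95% interval from 0.641-fold to 1.39-fold. The groups overlapped for both receptors.

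The proportion of the 2 receptors followed the library number rather than the group. Fgfr1 was 1.18 times as high as Fgfr4 in control 1 and 1.30 times in knockout 1, but 0.657 times in control 2 and 0.759 times in knockout 2. The summed receptor level had a narrower range, at 203 and 220.5 RPKM in the controls against 214 and 209 RPKM in the knockouts. With 2 libraries against 2, an exact permutation test cannot give a two-sided p below 0.333, so these ratios are a description. The Gm16159 transcript annotated on the opposite strand by GENCODE M21 shares 2.02% of the exon bases of Fgfr1.

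**Figure D2:**
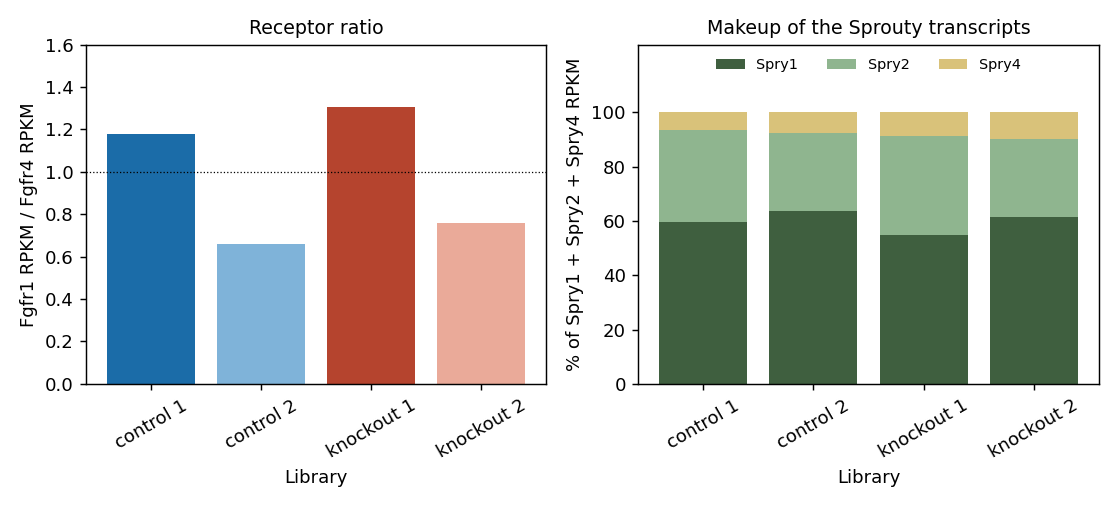
Left, Fgfr1 RPKM divided by Fgfr4 RPKM in each library, with the dotted line at equal levels; both libraries numbered 1 lie above it and both numbered 2 below. Right, the percentage of the summed Spry1, Spry2 and Spry4 RPKM that each gene holds; Spry1 holds 54.9% to 63.6%.

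Fgf2 (Entrez gene 14173, chromosome 3, 37348346 to 37410108, plus strand) encodes the ligand most studied for muscle stem cell activation. It was the lowest of the 9 genes, with 3.51 and 2.13 RPKM in the controls against 4.26 and 2.94 RPKM in the knockouts. The groups overlapped, since control 1 stood above knockout 2. The log2 fold change was 0.32 (standard error 0.28), with a limma adjusted p of 0.587, and it was 0.01 without control 2 and 0.62 without control 1. These values rest on 302 to 746 reads, and for the lowest library the 95% Poisson interval, which covers counting error only, was 1.90 to 2.39 RPKM, apart from the 3.22 to 3.82 RPKM of control 1. Nudt6, a gene on the opposite strand, shares 640 exon bases with Fgf2, 9.44% of its exons, and was itself low, at 0.926 and 1.34 RPKM in the controls against 1.04 and 1.92 RPKM in the knockouts. Without strand, reads from shared bases cannot be told apart.

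Spry1 (Entrez gene 24063, chromosome 3, 37639947 to 37644598, plus strand) starts 291.3 kb from the Fgf2 start in the RefSeq promoter table. It was the highest of the 9 genes in every library and ranked 465th of the 11603 genes by mean level. It had 175 and 160.0 RPKM in the controls against 147.5 and 135 RPKM in the knockouts, so that both knockout libraries were below both controls. The means were 167 ± 10.4 and 141 ± 8.73 RPKM (SD, n = 2), a difference of -15.6%. The log2 fold change was -0.24 (standard error 0.14), with a limma adjusted p of 0.413, and the 95% interval, from 0.664-fold to 1.07-fold, includes no difference. Rescaled to the total of reads per library it was -0.48, with a limma adjusted p of 0.163. GENCODE M21 annotates Gm42922 on the opposite strand over 710 exon bases of Spry1, 24.4% of the gene's exons, and how far its reads enter the Spry1 value was not tested, since no strand setting of the counting was given.

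Dusp6 (Entrez gene 67603, chromosome 10, 99263231 to 99267488, plus strand) showed the largest difference of the 9 genes on the log2 scale. The phosphatase it encodes is specific for ERK, and its transcript is a common readout of FGF-ERK activity. It had 49.7 and 54.1 RPKM in the controls against 38.3 and 31.9 RPKM in the knockouts, means of 51.9 ± 3.12 and 35.1 ± 4.49 RPKM (SD, n = 2), 1.48-fold lower. Both knockout libraries lay below both controls. The log2 fold change was -0.56 (standard error 0.15), with a 95% interval from 0.520-fold to 0.882-fold, an unadjusted p of 0.0116 and a limma adjusted p of 0.189. Leaving out 1 library at a time, it ran from -0.43 without knockout 2 to -0.69 without knockout 1. With the replicate number as a block, the limma adjusted p of Dusp6 was 0.04995, where 8.65% of all genes were called. The labels do not say that a number pairs libraries. The summed markers of differentiating myoblasts and of myofibres were lower in the 2 knockout libraries, and their part in the Dusp6 difference was not tested.

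The upstream sequences of Spry1 and Dusp6 are shown because these were the 2 genes whose knockout libraries both lay under the controls. They are the 250 bases before the gene start on the plus strand, from the RefSeq promoter table of GRCm38.p6, at chr3:37639697-37639946 and chr10:99262981-99263230. Windows of 300 bases, which also hold the 50 bases after the start, were searched for 7 of the 9 genes. Those of Fgfr1 and Spry4 were not searched. The search covered both strands for the ETS-type word CCGGAA, for the AP-1 word TGANTCA, and for the E-box CAGCTG, 3 words that do not contain one another. ETS and AP-1 factors are nuclear targets of ERK, and E-boxes are bound by myogenic factors. None of the words was present for Spry1 or Dusp6, so both sequences stand in lower case throughout. The ETS-type word was present in 2 of the 7 windows, those of Fgfr4 and Spry2, and in 14.9% of the 32851 windows of the table. In the Fgfr4 window the word began 178 bases before the start in that table. That position, 55152640, is where the deposited coordinates start Fgfr4, so the 2 starts differ. In the Spry2 window the word began 34 bases after the start in the promoter table. The AP-1 word was in 7.81% and the E-box in 16.3% of all windows.
Spry1: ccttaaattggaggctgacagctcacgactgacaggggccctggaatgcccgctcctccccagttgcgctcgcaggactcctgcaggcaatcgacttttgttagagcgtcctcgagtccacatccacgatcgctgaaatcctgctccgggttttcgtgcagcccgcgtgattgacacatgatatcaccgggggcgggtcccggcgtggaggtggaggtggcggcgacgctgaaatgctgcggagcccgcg
Dusp6: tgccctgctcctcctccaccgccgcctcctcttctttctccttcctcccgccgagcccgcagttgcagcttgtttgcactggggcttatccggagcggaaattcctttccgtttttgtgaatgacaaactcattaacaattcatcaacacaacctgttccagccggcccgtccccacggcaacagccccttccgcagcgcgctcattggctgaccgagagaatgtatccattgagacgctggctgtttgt

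Spry2 encodes another Sprouty inhibitor of receptor tyrosine kinases, and its transcript was the second most abundant of the 3 Sprouty transcripts. Spry2 (Entrez gene 24064, chromosome 14, 105891949 to 105896819, minus strand) had 99.9 and 72.5 RPKM in the controls against 98.1 and 63.4 RPKM in the knockouts, with overlapping groups. The log2 fold change was -0.11 (standard error 0.26), with a limma adjusted p of 0.859, and the 95% interval ran from 0.589-fold to 1.46-fold. The 2 knockout libraries differed by 1.55-fold, more than the group means did.

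Spry4 (Entrez gene 24066, chromosome 18, 38586268 to 38601268, minus strand), a Sprouty gene induced by ERK in many tissues, varied least within groups of the 9 genes. It had 19.1 and 19.0 RPKM in the controls against 22.9 and 21.9 RPKM in the knockouts, means of 19.1 ± 0.0743 and 22.4 ± 0.727 RPKM (SD, n = 2). Both knockout libraries were above both controls on the authors' scale, but a rescaling to the total of reads per library shifted the median of all genes by -0.19 on the log2 scale, and there the Spry4 groups overlapped with a log2 fold change of -0.0048. On the authors' scale it was 0.23 (standard error 0.14), with a limma adjusted p of 0.428 and a 95% interval from 0.927-fold to 1.48-fold.

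On the authors' scale Spry1 was 1.18-fold lower and Spry4 1.17 times as high in the knockout libraries, neither past the test, while after the rescaling to reads per library Spry1 was at -0.48 and Spry4 at -0.0048 on the log2 scale. As a share of the summed Sprouty transcripts, Spry1 held 59.5% and 63.6% in control and 54.9% and 61.3% in knockout, and these overlapped. Spry2 held 34.0% and 28.8% in control and 36.5% and 28.8% in knockout. Spry4 held 6.50% and 7.55% in control and 8.53% and 9.92% in knockout, the 1 share whose groups did not overlap. A share does not depend on how a library is scaled. Spry1 holds most of the sum, however, so a lower Spry1 also raises the Spry4 share, and the part of each gene was not tested. Of all genes, 25.0% had both knockout values above both controls and 26.2% had both below. The smallest exact permutation p with 2 libraries per group is 0.333, so these shares are a description. The summed Sprouty level was 294 and 251 RPKM in the controls against 269 and 220.4 RPKM in the knockouts.

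The Spred genes encode membrane-bound relatives of Sprouty that recruit neurofibromin to switch off Ras. Spred1 (Entrez gene 114715, chromosome 2, 117121374 to 117182279, plus strand) had 64.4 and 42.8 RPKM in the controls against 56.7 and 44.9 RPKM in the knockouts. Both knockout values were between the 2 control values. The log2 fold change was -0.06 (standard error 0.24), with a limma adjusted p of 0.926. Spred2 (Entrez gene 114716, chromosome 11, 19924375 to 20024026, plus strand) was far lower, at 3.82 and 4.40 RPKM in the controls against 4.84 and 4.09 RPKM in the knockouts, with 310 to 577 reads and a log2 fold change of 0.11, standard error 0.18 and limma adjusted p 0.796. The groups overlapped here too. Spred1 exceeded Spred2 by 9.74 to 16.9 times over the 4 libraries.

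**Figure D3:**
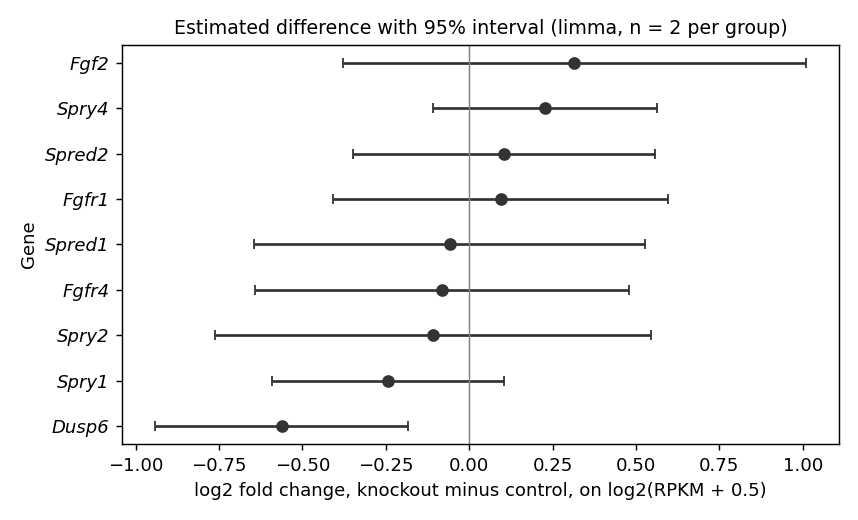
Log2 fold change of knockout against control on the log2(RPKM + 0.5) scale for the 9 genes, with the 95% interval from limma (n = 2 per group). The Dusp6 interval is the only one that does not include 0, before adjustment over all genes.

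By mean level over the 4 libraries the order was Spry1 (154 RPKM), Fgfr4 (109.4), Fgfr1 (102), Spry2 (83.5), Spred1 (52.2), Dusp6 (43.5), Spry4 (20.7), Spred2 (4.29) and Fgf2 (3.21). Spry1 stood apart from Fgfr4, Dusp6 from Spry4, and Spry4 from Spred2, with ranges that did not overlap. Fgfr4 and Fgfr1 changed places between libraries, and Spred1 exceeded Dusp6 in 3 of 4 libraries. Fgfr1 was above Spry2, Spry2 above Spred1, and Spred2 above Fgf2 in all 4 libraries, although the ranges of each pair overlapped.

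Differences within groups were as large as those between groups for most of the 9 genes. For 6 of 9 genes the mean log2 difference between the 2 libraries of a group exceeded that between the groups, against 48.7% of all genes; the exceptions were Spry1, Spry4 and Dusp6. Leaving out 1 library gave the log2 fold change of Fgfr1, Fgfr4, Spry2, Spred1 and Spred2 the opposite sign in at least 1 case each. For 7 of 9 genes the libraries numbered 1 and 2 differed in the same direction in control and in knockout, against 65.9% of all genes. Library 1 was the higher one for Fgfr1, Fgf2, Spry1, Spry2, Spry4 and Spred1, and the lower one for Fgfr4. The fold between libraries 1 and 2 reached 1.65 in control and 1.45 in knockout for Fgf2, 1.50 and 1.26 for Spred1, and 1.38 and 1.55 for Spry2. The libraries of a group also differed in muscle transcripts: control 2 exceeded control 1 in summed markers of differentiating myoblasts (934 and 548 RPKM) and of myofibres (749.9 and 181 RPKM), while knockout 2 and knockout 1 had 143 and 119 RPKM and 55.7 and 66.6 RPKM. Their part in the differences by library number was not tested.

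The wider pathway was read from 7 lists with 113 genes besides the 10, of which 92 were analysed. limma called 0 of the 92 at an adjusted p under 0.05, and limma-voom also called 0. At an unadjusted p under 0.05 limma counted 11 higher and 10 lower in knockout, together 21 of 92, where the share of all genes was 18.0%. The authors' deposited table put 3 of the 92 higher and 6 lower at its adjusted p under 0.05, against 3.59% and 4.26% of all genes. The knockout libraries both exceeded the controls for 19 of the 92 and were both below them for 25, where the shares of all genes were 25.0% and 26.2%. The median log2 fold change of the 92 was -0.02.

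**Figure D4:**
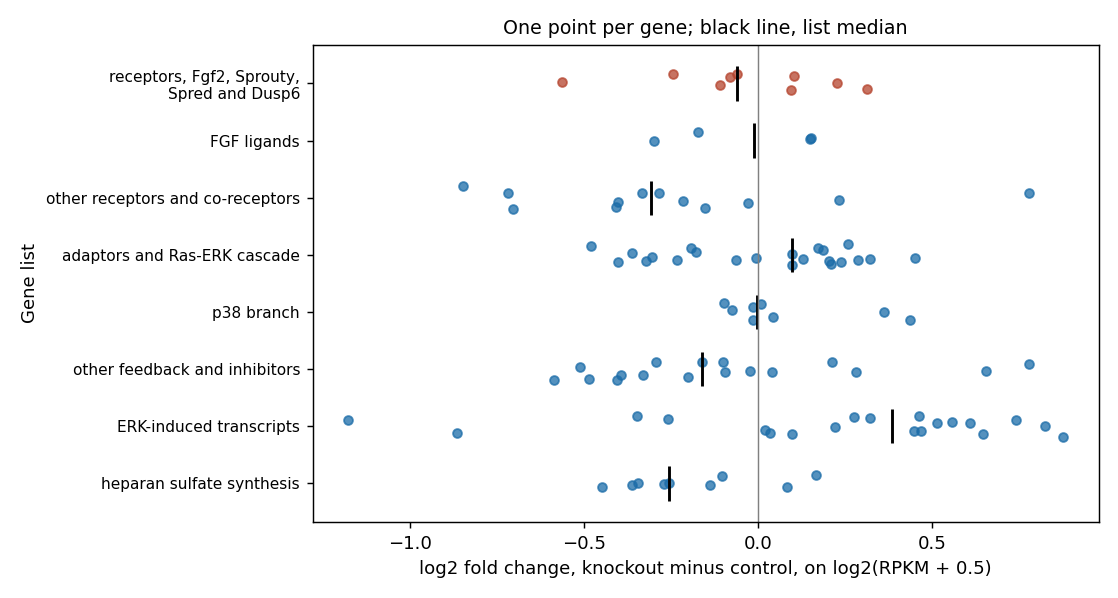
Log2 fold change of knockout against control on the log2(RPKM + 0.5) scale, 1 point per gene, for the 9 genes (red) and the 7 pathway lists (blue), with black lines at the medians. On the authors' scale 10 of 12 receptors and co-receptors and 7 of 9 heparan sulfate genes lie left of 0, and 16 of 20 ERK-induced transcripts lie right of it; scaled by reads per library these counts are 10, 9 and 12.

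Heparan sulfate carriers present FGFs to their receptors. Of the 12 other receptors and co-receptors analysed, 1 was higher and 3 were lower in the authors' deposited table, against 3.59% and 4.26% of all genes. All 4 were such carriers, as were most genes of the list, and 0 passed limma. Sdc4, a syndecan of quiescent and activated muscle stem cells, had 2121 and 1582 RPKM in the controls against 3031 and 3260.0 RPKM in the knockouts. It had a limma adjusted p of 0.195 and an adjusted p of 0.0028 in the authors' deposited table. The 3 called lower there were glypicans: Gpc1, known to aid FGF2 signalling in muscle precursors, had 35.7 and 39.0 RPKM in the controls against 24.5 and 17.2 RPKM in the knockouts, 1.79-fold lower. Gpc4 had 24.6 and 33.7 RPKM against 18.5 and 16.3 RPKM, and Gpc3 had 7.79 and 14.1 RPKM against 6.05 and 6.49 RPKM. Their limma adjusted p values were 0.177, 0.189 and 0.283, in the order Gpc1, Gpc4 and Gpc3. The other carriers analysed, Sdc1, Sdc2, Sdc3 and Gpc6, had log2 fold changes of -0.33, -0.21, -0.40 and -0.28 and were not called. The list median was -0.31. Of the 9 heparan sulfate synthesis genes 0 were called by limma or in the authors' deposited table, and the most abundant were Ext2, a chain polymerase (18.1 and 22.7 RPKM in control, 13.7 and 15.8 RPKM in the knockouts), and the sulfotransferase gene Ndst1 (16.7 and 16.6 RPKM, 19.8 and 15.7 RPKM).

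Most ERK-induced transcripts had a log2 fold change above 0: 16 of 20, with a median of 0.39, against 5595 of all 11603 genes. Scaled by reads per library these were 12 of 20, with a median of 0.15, against 3049 of all genes. limma called 0 of the 20. Both knockout values were above the controls for 9 and below them for 3, where the shares of all genes were 25.0% and 26.2%. At an unadjusted limma p under 0.05 there were 7 higher and 2 lower, where the share of all genes was 18.0% for both directions together. The 7 were Junb and, named after their values were seen, the AP-1 genes Fos and Fosl2, the immediate-early gene Ier2, Myc, the small Maf gene Maff and Errfi1, which encodes a feedback inhibitor of the EGF receptor. The AP-1 gene Junb was the 1 that was higher in the authors' deposited table (1177 and 1439 RPKM in control, 1756 and 3026 RPKM in the knockouts). There 2 were lower: Ccnd1, which encodes cyclin D1 (17.9 and 22.9 RPKM, 10.2 and 7.37 RPKM), and Etv4, an ETS factor gene of the PEA3 group that FGF induces in many tissues (0.722 and 1.40 RPKM, 0.324 and 0.353 RPKM). Their limma adjusted p values were 0.245 for Junb, 0.152 for Ccnd1 and 0.189 for Etv4. Beside this 1 higher and 2 lower of 20, the authors called 3.59% of all genes higher and 4.26% lower. The summed differentiating myoblast and myofibre markers were lower in the knockout libraries. Their part in the values of Ccnd1, Etv4 and the other ERK-induced transcripts and of the glypicans was not tested.

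Among the 17 other feedback genes and inhibitors analysed, the authors' deposited table called 1 higher and 1 lower, against 3.59% and 4.26% of all genes. There limma called 0. Dusp1, a phosphatase gene for p38, JNK and ERK induced by stress, had 545 and 449 RPKM in the controls against 989.5 and 730.5 RPKM in the knockouts, with a limma adjusted p of 0.189. Sulf2, which encodes a sulfatase that trims heparan sulfate at the cell surface, had 0.867 and 0.749 RPKM in the controls against 0.346 and 0.398 RPKM in the knockouts, with a limma adjusted p of 0.172. Of the 22 adaptors and Ras-ERK kinases analysed 0 passed limma or the authors' adjusted p in their deposited table. The 2 most abundant were the Ras-related gene Rras (133 and 132 RPKM in control, 162 and 203 RPKM in the knockouts) and the kinase gene Map2k1, which encodes MEK1 (92.9 and 69.8 RPKM, 107 and 84.4 RPKM). The 8 genes of the p38 branch also gave 0 calls in limma and in the authors' deposited table, with Zfp36, an mRNA decay factor gene (1115 and 1230.0 RPKM, 1223 and 2056 RPKM), and the p38 kinase kinase gene Map2k3 (512 and 417 RPKM, 509.6 and 367 RPKM) as the most abundant.

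Of the other FGF ligands 4 of 20 were analysed and 0 were called by limma or in the authors' deposited table. Fgf16 had 10.9 and 6.73 RPKM in the controls against 8.29 and 5.70 RPKM in the knockouts, and Fgf13, an intracellular family member that does not act on FGF receptors, had 7.45 and 7.72 RPKM against 5.95 and 12.0 RPKM. Among the 92 genes, the pattern over the 4 libraries nearest to that of Spry1, by root mean square distance of centred log2 values, was that of Frs2 (distance 0.04), the adaptor gene of FGF receptors, with 4.55 and 4.34 RPKM in the controls against 3.73 and 3.29 RPKM in the knockouts. The next were Sdc2 (distance 0.06), a syndecan gene, with 51.1 and 51.6 RPKM against 45.3 and 43.1 RPKM, and Lztr1 (distance 0.06), a gene for an adaptor of Ras degradation, with 6.83 and 6.93 RPKM against 6.12 and 5.74 RPKM. These distances rest on 4 libraries and are a description.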

How the data were processed

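Trim Galore, STAR, featureCounts from Subread, edgeR and the build mm10 (GRCm38) are named in the submitters' processing notes, without versions. The deposited columns have no stated unit. They behaved as RPKM computed by the authors: multiplied by exon length and divided by a step found for each library, 100% of values gave whole reads to within 0.01 reads. The adjusted p-values of the authors' comparison were deposited with the values, and their model is not given in the sources used here. Columns beginning with Ct were matched to control by name and those beginning with Fl to knockout as the other prefix, by number; the labels do not spell out Fl.

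The test was limma 3.58.1 in R 4.3.3 as limma-trend, fitted to log2(RPKM + 0.5) of all 11603 genes in the 4 libraries, with Benjamini-Hochberg adjustment and a threshold of 0.05. The planned test was for raw counts or RPKM, and RPKM applied. The fit was tested on simulated data. Alternatives were pseudocounts of 0.1 and 1, a mean of at least 1 RPKM, other scalings, limma-voom, the replicate number as a block, and leaving out each library. Named genes are the 10 members, list genes past 0.05 in limma or in the authors' table, or else the 2 most abundant, and the 3 genes nearest to Spry1. The members and lists were chosen with earlier results of these data known.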

Additional observations from a re-analysis of the deposited data

How the results depend on the processing

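Of 99 log2 fold changes of the 9 genes under 11 alternatives, 86 kept their direction and their side of the threshold, 12 had the opposite sign and 1 passed the threshold. Spry1, Dusp6 and Fgf2 kept their sign throughout, at -0.48 to -0.18, -0.79 to -0.43 and 0.01 to 0.62. Scaled by the reads listed, Fgfr1 was -0.14, Spred2 -0.11 and Spry4 -0.0048, and 2 of 9 genes had groups that did not overlap, against 3 on the authors' scale. Leaving out 1 library at a time, Fgfr1 ranged up to 0.30, Spred2 up to 0.21, Fgfr4 down to -0.34, Spred1 down to -0.35 and Spry2 down to -0.42. Without control 1, Spred1 was 0.23 and Spry2 0.12. Without control 2, Fgfr1 was -0.07 and Fgfr4 0.18. Without knockout 1, Fgfr1 was -0.11, Fgfr4 0.10 and Spred2 -0.0043. Without knockout 2, Spred1 was 0.11 and Spry2 0.20. The cause was not tested. limma called 0 of the 9 and 0 of the 92 pathway genes under each alternative except the replicate block.

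The labels give both groups the numbers 1 and 2 and do not say that a number marks a shared animal, litter or day. Across 10007 genes, which are not independent, the difference between libraries 1 and 2 in control correlated with that in knockout at a Pearson r of 0.414. With the replicate number as a block, limma called 1 of the 9 genes (Dusp6, adjusted p 0.04995), 8 of the 92 pathway genes (Etv4, Ccnd1, Gpc1, Gpc4, Sulf2, Dusp1, Dusp2 and Fosl2) and 1004 of all 11603 genes, against 0, 0 and 1 without it. The lowest of the 9 genes had at least 302 reads per library, a Poisson counting error of 5.75% if reads are taken as independent molecules.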
